A study of Mus musculus with 15 samples.

Results

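The module of chaperones and the unfolded protein response (UPR) holds 42 genes. They were chosen by name, as the genes whose symbol stands in the bracketed definition of a deposited row or in the platform's probe annotation. The rule itself uses no measured value, but the module was proposed with earlier results of these data known. Of these 42 genes, 38 had a probe (56 probes) and 30 were above background (41 probes), among 8767 genes above background on the arrays. Expression was measured on 15 Illumina bead arrays in the CA3 field of the newborn mouse hippocampus (postnatal day 0), dissected by laser. The 3 groups of 5 arrays are the outer CA3 layer of doublecortin (Dcx) knockout mice, labelled as mutants, the inner CA3 layer of the same 5 knockout (KO) animals, and the undivided CA3 layer of 5 wild-type (WT) mice, so 10 animals stand behind the arrays. All groups share the age, the field and an amplification of RNA pooled from the dissected pieces of 1 brain, and the labels give neither strain nor sex. The dissected tissue holds all cell types of the layer, so that fewer cells of a type and less RNA per cell cannot be told apart.

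Proteins of the secretory pathway fold in the endoplasmic reticulum (ER), where BiP (the product of Hspa5), the ER member of the heat shock protein 90 family (Hsp90b1), the lectins calreticulin and calnexin, and the protein disulfide isomerases assist them. When unfolded proteins build up, the sensors IRE1 (Ern1), PERK (Eif2ak3) and ATF6 start the UPR, which slows translation through PERK, raises Atf4 and its target Ddit3, and induces ER chaperones and the machinery of ER-associated degradation through Xbp1 and ATF6. Cytosolic and mitochondrial chaperones answer instead to heat shock factors such as Hsf1, or are made constitutively at high levels in neurons, as Hspa8 and Hsp90ab1 are.

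Shown first are promoter matches to elements of the ER stress and the heat shock responses, from the RefSeq promoter table (build GRCm38.p6). Of the 42 members, 33 matched at least 1 window of 300 bases, from 250 before to 50 after a gene's start, with 38 windows in all. The ER stress response element was searched on both strands as CCAAT and CCACG with 9 free bases between them. It occurred in windows of 8 member genes, against 0.119% of the 32851 windows of all genes. These matches are listed with the fixed letters in capitals and the free letters in lower case, each read in the direction of the motif.
Calr site, chr8:84847075-84847093, plus strand: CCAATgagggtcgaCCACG
Canx site, chr11:50325800-50325818, minus strand: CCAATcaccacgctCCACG
Creld2 site, chr15:88819520-88819538, minus strand: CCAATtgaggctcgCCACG
Dnajc3 site, chr14:118937827-118937845, plus strand: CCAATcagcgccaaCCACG
Hsp90b1 site, chr10:86705533-86705551, plus strand: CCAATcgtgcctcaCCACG
Hsp90b1 site, chr10:86705638-86705656, minus strand: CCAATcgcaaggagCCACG
Hspa5 site, chr2:34772025-34772043, plus strand: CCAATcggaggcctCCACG
Pdia6 site, chr12:17266491-17266509, plus strand: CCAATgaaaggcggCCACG
Syvn1 site, chr19:6046532-6046550, plus strand: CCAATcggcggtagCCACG
In Hsp90b1, which holds 2 matches, both stand in the 250 bases before the start site, where capitals mark them and the second is read in reverse.
Hsp90b1 promoter, chr10:86705445-86705694, minus strand: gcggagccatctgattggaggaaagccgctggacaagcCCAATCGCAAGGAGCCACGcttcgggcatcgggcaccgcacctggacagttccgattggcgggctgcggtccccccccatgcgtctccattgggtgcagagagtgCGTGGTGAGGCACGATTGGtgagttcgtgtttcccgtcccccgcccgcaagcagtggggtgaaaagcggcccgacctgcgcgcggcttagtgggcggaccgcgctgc
The heat shock element was searched on both strands as GAA, TTC and GAA with 2 free bases in each gap and occurred in windows of 3 members (Hspd1, Hspe1 and Hsph1), against 0.603% of all windows. Hspd1 and Hspe1, which encode the mitochondrial chaperonin and its lid, start in opposite directions from a shared stretch, and their windows overlap by 285 bases. The 250 bases before the start of Hspe1 hold 2 overlapping matches, 1 on each strand, which together make the run in capitals.
Hspe1 promoter, chr1:55087898-55088147, plus strand: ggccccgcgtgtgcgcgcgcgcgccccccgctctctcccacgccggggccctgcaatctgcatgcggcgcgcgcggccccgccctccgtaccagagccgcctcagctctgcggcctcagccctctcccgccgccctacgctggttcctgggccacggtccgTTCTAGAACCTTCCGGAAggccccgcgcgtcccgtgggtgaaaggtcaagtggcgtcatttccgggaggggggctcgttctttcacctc
The Atf4-type element TGATGNAA was in windows of 3 members (Atf3, Herpud1 and Trib3), against 3.97% of all windows, and TGACGTGG, the element bound by Xbp1 and ATF6, in those of 0 members, against 0.676%. The CCACG end of the first element can overlap a reverse match of TGACGTGG. These matches describe letters in a window and were not tied to any value.

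By role, 10 of 15 ER chaperones and folding enzymes were above background, 3 of 4 genes of ER-associated degradation, 5 of 9 UPR sensors, factors and effectors, 9 of 11 cytosolic chaperones (with Hsf1), and 3 of 3 mitochondrial chaperones. A probe counted as above background when its signal passed the negative controls at a detection p under 0.01 on at least 5 of the 15 arrays. Not above background were the probes of Hspa5, Canx, Manf, Edem1, Atf3, Ern1, Trib3 and Hspb1. Each probe of these 8 genes was detected on at most 1 array, except that of the small heat shock protein Hspb1, which was detected on WT array 1 (6.02) and inner array 2 (5.29). No probe was matched for Dnajb11, Sdf2l1, Atf6 and Hspa1b, which are not analysed here. Hspa5, Canx and 2 of the 3 UPR sensors (Ern1 and Atf6) are therefore outside all counts below.

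Between 10688 and 11976 probes were detected per array. Dcx, the targeted gene, lay between 10.54 and 10.74 on the log2 scale in KO outer and between 10.36 and 10.61 in KO inner layers, against 11.76 to 12.07 in WT layers. Marker levels here and below are means over the markers of a list above background, taken on each array. Markers of CA3 and pyramidal neurons were above background for 11 of 11 genes. Their array means were 8.94 to 9.17 in KO outer, 9.15 to 9.34 in KO inner and 8.75 to 9.01 in WT layers. Arrays of KO animals 1 to 4 carry a shift in the authors' deposited scores that the arrays of KO animal 5 and of WT do not, and these 8 shifted and 7 unshifted arrays are treated below as batches, although the labels name none. Skeletal muscle markers (8 of 9 above background) had array means of 4.94 to 5.67 in KO outer, 4.94 to 9.34 in KO inner and 5.18 to 11.12 in WT layers. High muscle or bone levels marked inner arrays 1, 2 and 5, WT arrays 1, 2 and 3, and outer array 1. Replicates are separate animals.

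The 2 layers of the KO, compared within animals by the brightest probe of each gene, differed little in chaperone and UPR genes. Of 30 members tested, 1 passed at a Benjamini-Hochberg adjusted p under 0.05 in limma (3.33%), where 21% of all 8767 genes did. This was Ppp1r15a, one of the 11.4% of all genes called lower in the outer layer, beside 9.59% called higher. Before adjustment, 6 members had p under 0.05, against 36.6% of all genes. The median absolute log2 difference was 0.138 over the members and 0.167 over all genes, and the 95% interval lay within 0.5 of 0 for 25 of 30 members. The precision behind this was like that of other genes, with 95% intervals that reached a median of 0.209 to either side for the members and 0.216 for all genes. Mean marker levels of other cells differed between the same layers, though not every marker of a list moved with its mean. Newborn neuron markers (6 of 7 above background) had array means of 8.72 to 9.01 in KO outer and 7.81 to 8.16 in KO inner layers. Of this list, Gadd45g went the other way, at 7.91 to 8.34 in KO outer and 8.73 to 9.41 in KO inner layers. Microglial markers (4 of 7) lay at 4.89 to 5.39 and 5.74 to 6.92 in these layers, and endothelial and mural markers (8 of 9) at 6.83 to 7.25 and 7.47 to 7.88. Their part in the values of the members was not tested.

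**Figure D1:**
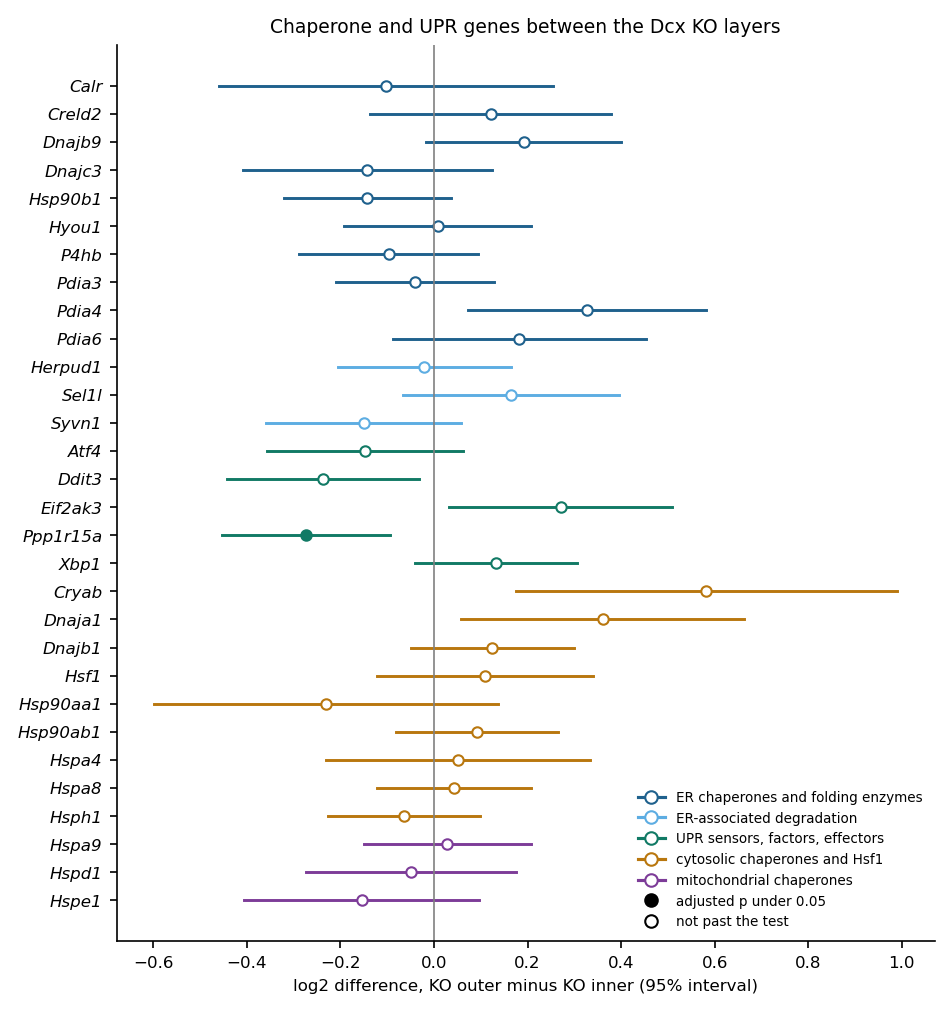
Each of the 30 members above background is drawn as its log2 difference, KO outer minus KO inner, with its 95% interval from limma over 5 animals, coloured by role. Filled symbols passed the test (Ppp1r15a, −0.27), and 5 further members, among them Cryab at 0.58 and Pdia4 at 0.33, have intervals off 0 without passing after adjustment.

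Ppp1r15a encodes GADD34, the phosphatase subunit that lifts the translational block set by PERK. Its log2 signal was 6.60, 6.99, 6.69, 6.72 and 7.31 in the outer layer of KO animals 1 to 5, against 6.93, 7.36, 7.08, 6.88 and 7.42 in the inner layer of the same animals, and it was 7.06, 7.15, 6.86, 7.08 and 7.07 in WT layers. A common direction in 5 of 5 animals is frequent, found for 34.8% of all genes and for 6 of 30 members. For Ppp1r15a the outer value was the lower one in 5 of 5 animals, while the ranges of the layers overlapped because animals 2 and 5 were high in both. The difference was −0.27 ± 0.077 (SE, n = 5 animals, adjusted p = 0.044). Leaving out any of the 5 animals ended this call, with adjusted p between 0.0568 and 0.12.

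Other parts of the PERK branch did not pass between the layers. Ddit3, the pro-apoptotic factor CHOP, differed by −0.24 ± 0.088 (adjusted p = 0.097) and was also lower in the outer layer of 5 of 5 animals. Eif2ak3, the sensor gene, whose 1 kept probe is named by the platform's annotation while its deposited definition names another locus, differed by 0.27 ± 0.10 (adjusted p = 0.102) and was higher in the outer layer of 5 of 5 animals. Atf4 differed by −0.15 (95% interval −0.36 to 0.061), and Xbp1, the factor spliced by IRE1, by 0.13 (−0.040 to 0.31). The spliced form of Xbp1 was not measured apart. Values of the 3 measured genes of ER-associated degradation lay between −0.15 and 0.16, for the ubiquitin ligase Syvn1, its partner Sel1l and the membrane protein Herpud1.

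ER chaperones and folding enzymes showed no common direction between the layers. Of 10 tested, 0 passed, 5 were above 0, and the median was −0.02 beside 0.03 over all genes. Pdia4, a disulfide isomerase, had the widest difference, with 8.76, 7.80, 8.02, 8.19 and 8.48 in KO outer layers against 8.07, 7.65, 8.03, 7.84 and 8.04 in KO inner layers. It was higher in the outer layer of 4 of 5 animals, by 0.33 ± 0.11 on average (adjusted p = 0.073). The differences of the other 9 lay between −0.14, for Hsp90b1 and the PERK inhibitor Dnajc3, and 0.19, for Dnajb9, a BiP co-chaperone. Hyou1 (0.01), Pdia3 (−0.04), P4hb (−0.10), Calr (−0.10), Creld2 (0.12) and Pdia6 (0.18) stood in between.

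By its brightest probe, no cytosolic chaperone passed between the layers, while other probes of Hspa8 and Hsp90ab1, given below, did. Of 9 tested, 0 passed and 7 were above 0, where 54.1% of all genes were, and the median difference was 0.09. Cryab, a small heat shock protein also abundant in muscle, had 6.09, 5.51, 5.46, 5.45 and 5.93 in KO outer layers against 5.38, 5.75, 4.78, 4.30 and 5.30 in KO inner layers. The difference was 0.58 ± 0.18 (adjusted p = 0.054), with the outer value higher in 4 of 5 animals. Cryab was detected on 3 of 5 inner arrays. In animals 3 and 4, where muscle and bone markers were low in both layers, it was undetected in the inner layer, and the difference was at least 0.57 on average. Dnaja1, an HSP70 co-chaperone, differed by 0.36 ± 0.13 (adjusted p = 0.090), at a level that was detected on only 7 of 15 arrays. The remaining 7 lay between −0.23 for the stress-inducible Hsp90aa1 and 0.12 for the HSP40 gene Dnajb1, with Hsf1 at 0.11 and Hsph1, an exchange factor for HSP70, at −0.06. Mitochondrial chaperones differed by 0.03 (Hspa9), −0.05 (Hspd1) and −0.15 (Hspe1), and 0 of 3 passed by their brightest probes.

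Different probes of a gene did not always give the same answer. Each gene above is represented by its brightest probe, and 9 members had 20 kept probes between them. At the level of probes, 4 of 41 member probes passed between the layers (9.76%, against 19.9% of all kept probes), and 3 of these belonged to genes whose brightest probe did not pass. The second probe of Hspa8, the constitutive cytosolic HSP70, had 11.86, 11.81, 11.59, 11.75 and 12.32 in KO outer layers against 10.94, 11.10, 11.07, 11.07 and 11.84 in KO inner layers, and 12.03, 11.96, 12.40, 11.48 and 12.22 in WT layers. The outer layer was the higher one in 5 of 5 animals, by 0.66 ± 0.087 (adjusted p = 0.0029). The brightest Hspa8 probe, whose deposited definition names another locus, was near the top of the scale at 14.12 ± 0.11 and 14.08 ± 0.094 (SD, n = 5 each) in these layers and differed by 0.04 ± 0.071. The second probe of Hspd1 had 7.88, 8.49, 8.43, 8.44 and 8.50 in KO outer layers against 7.13, 7.57, 8.11, 8.02 and 8.21 in KO inner layers. It was higher in the outer layer of 5 of 5 animals, by 0.54 ± 0.11 (adjusted p = 0.016), and its bright counterpart differed by −0.05. A further Hsp90ab1 probe, for the constitutive cytosolic HSP90, differed by 0.34 ± 0.090 (adjusted p = 0.034), beside 0.28 and 0.09 for the other two probes of this gene. The positions of the probes in their transcripts are not used here, and no probe level was set against another.

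**Figure D2:**
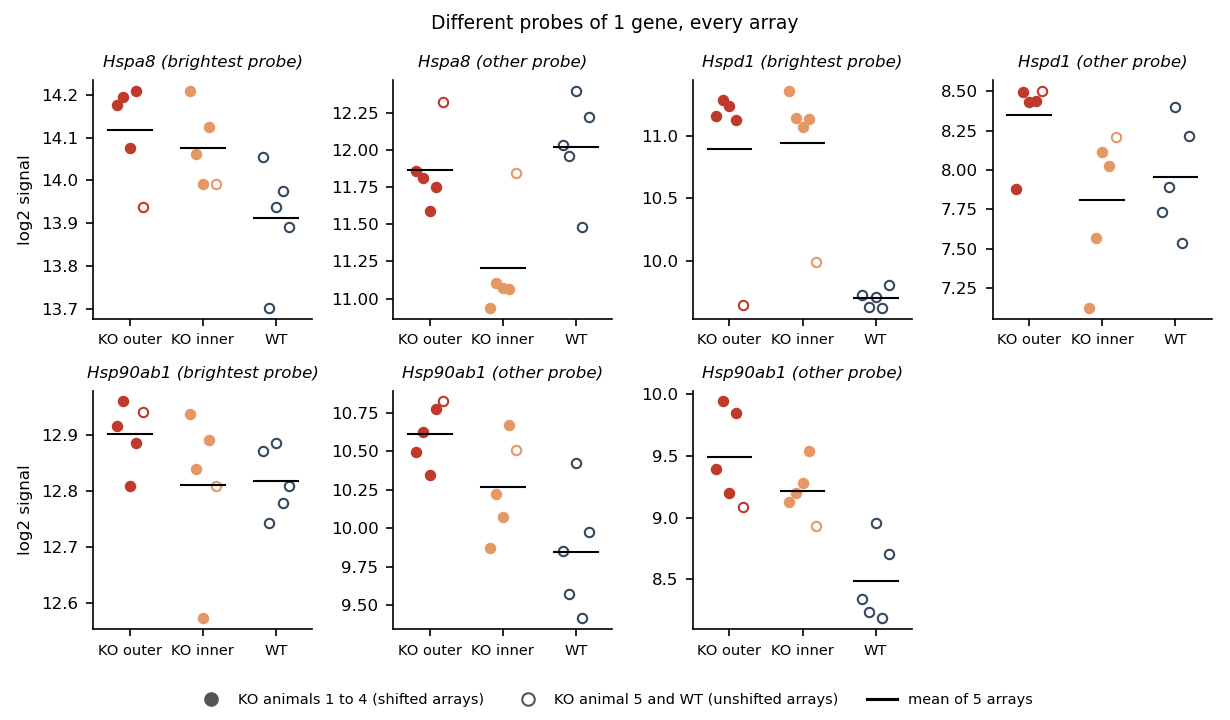
Log2 signals of the 7 kept probes of Hspa8, Hspd1 and Hsp90ab1 on every array, by group, with filled symbols for KO animals 1 to 4, open symbols for KO animal 5 and WT, and bars for the mean of 5 arrays. The bright Hspd1 probe parts KO animals 1 to 4 from the rest, while the other Hspd1 probe and the second Hspa8 probe part the outer from the inner layer within animals.

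Set against WT, more members passed, most of the higher ones with KO animals 1 to 4 and not animal 5 above the WT mean. In the inner layer 12 of 30 members were called against WT, 7 higher and 5 lower, where 29.5% of all genes were called (13.8% higher and 15.7% lower). Against the same WT arrays, 9 of 30 were called in the outer layer, 6 higher and 3 lower, where 15.2% of all genes were (8.35% higher and 6.89% lower). One of the 6 is Hspa4, undetected in WT, without which 8 of 29 were called. The count for the outer layer rests on single arrays, with 0 to 5 called when 1 of outer arrays 1 to 4 was left out, 1 to 2 without 1 of WT arrays 1 to 4, and 15 without outer array 5. It was 0 once arrays with much muscle or bone signal were left out, which sets outer arrays 2 to 5 against WT arrays 4 and 5 alone. With so few WT arrays this 0 is not read as a result about the members. For the inner layer the count was 5 to 7 without 1 of inner arrays 2 to 4, and 6 without WT array 3. The share of all genes called in these reduced fits is not given, so their counts describe how unstable the calls are and nothing particular to the members. With the batch as a term, 0 of 30 members passed in either layer, and of all genes 0.0798% did in the inner and 0.0114% in the outer layer. At an unadjusted p under 0.05, this fit left 0 members in the inner and 2 in the outer layer. All 15 arrays in 1 fit, with that term and a random block for the animal, also gave 0 of 30 in each layer (1.25% of all genes in the inner and 0.0114% in the outer). These fits leave KO animal 5 alone to stand against the 5 WT arrays, where hardly any gene can pass, so their counts of 0 say nothing about the members. The batch and the genotype cannot be told apart in the other 4 animals. Both comparisons share the WT arrays, and their values are given side by side without a measure of likeness. Mean marker levels of other cells differed between KO inner and WT layers too, though not every marker of a list moved with its mean. Array means of KO inner layers lay at 8.49 to 8.86 for GABAergic interneurons (6 of 8 markers above background), against 7.60 to 8.07 in WT layers. They lay at 7.86 to 8.19 for radial glia (8 of 10), against 7.23 to 7.51 in WT layers. They were 7.95 to 8.80 for astrocytes (7 of 10), against 7.46 to 7.80 in WT layers, and 7.15 to 7.25 for the oligodendrocyte lineage (6 of 8), against 6.45 to 6.85 in WT layers. Against these means, Gja1 of the astrocyte list lay at 8.56 to 10.67 in KO inner and 10.64 to 11.36 in WT layers. Vim of the radial glia list lay at 8.76 to 9.38 and 9.39 to 10.02, and Cspg4 of the oligodendrocyte list at 4.82 to 5.86 and 5.40 to 6.19. For newborn neurons the inner means given above lay below those of WT (8.30 to 8.55) and the outer means above them. Gadd45g again went the other way, with WT values of 8.17 to 8.71 below its inner values. So did Neurod1 in KO inner animals 1 to 4 (5.95 to 6.64, against 4.71 to 5.671 in WT layers), while inner array 5 was at 4.60. In the outer layer Neurod1 (5.674 to 7.51) was above all WT values, and the other markers of this list above background overlapped WT. The means of GABAergic markers in the outer layer (8.14 to 8.36) were above WT as well. Against this mean, Npy lay at 7.69 to 8.33 in KO outer and 7.88 to 8.355 in WT layers. Slc32a1 overlapped WT, at 9.13 to 9.47 and 9.02 to 9.39. The part of these cells in the members' values was not tested. By probes, 17 of 41 member probes were called in the inner layer (41.5%, against 28.8% of all kept probes) and 13 of 41 in the outer layer (31.7%, against 15.7%). The 41 include probes of Atf4, Sel1l and Hspa4 that were undetected in WT and kept only through KO arrays. These shares are therefore not read as an excess among the members.

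Without the batch term, both genes of the mitochondrial chaperonin were higher in KO than in WT layers, and Hspe1 had the largest absolute difference from WT of the 30 members in each layer. Hspd1, which encodes HSP60, had 11.16, 11.28, 11.24, 11.13 and 9.65 in KO outer layers and 11.36, 11.14, 11.07, 11.14 and 9.99 in KO inner layers, against 9.73, 9.63, 9.71, 9.63 and 9.81 in WT layers. KO animals 1 to 4 were above every WT array in both layers, and animal 5 was within the WT range in the outer layer and just above it in the inner. The difference was 1.19 ± 0.27 in the outer layer (2.28-fold, adjusted p = 0.025, and −0.05 under the batch term) and 1.24 ± 0.22 in the inner layer (2.36-fold, adjusted p = 0.0045, and 0.29 under the batch term). Hspe1, the HSP10 lid of the same chaperonin, had 9.25, 9.03, 8.91, 9.40 and 6.81 in KO outer layers and 9.64, 9.34, 9.09, 9.11 and 6.99 in KO inner layers, against 6.996, 7.54, 6.92, 7.52 and 7.53 in WT layers. Again animals 1 to 4 were above all WT arrays and animal 5 was not. The difference of Hspe1 was 1.38 ± 0.42 in the outer layer (adjusted p = 0.049) and 1.53 ± 0.42 in the inner layer (adjusted p = 0.022), and −0.50 and −0.31 under the batch term. The other Hspd1 probe did not part these animals, with differences of 0.39 (outer, adjusted p = 0.143) and −0.15 (inner, adjusted p = 0.651). Hspa9, the mitochondrial HSP70, differed from WT by 0.09 in the outer and 0.06 in the inner layer by its brightest probe and did not pass in either. Its second probe passed in the inner layer (0.28 ± 0.090, adjusted p = 0.037) and not in the outer (0.22, adjusted p = 0.187).

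**Figure D3:**
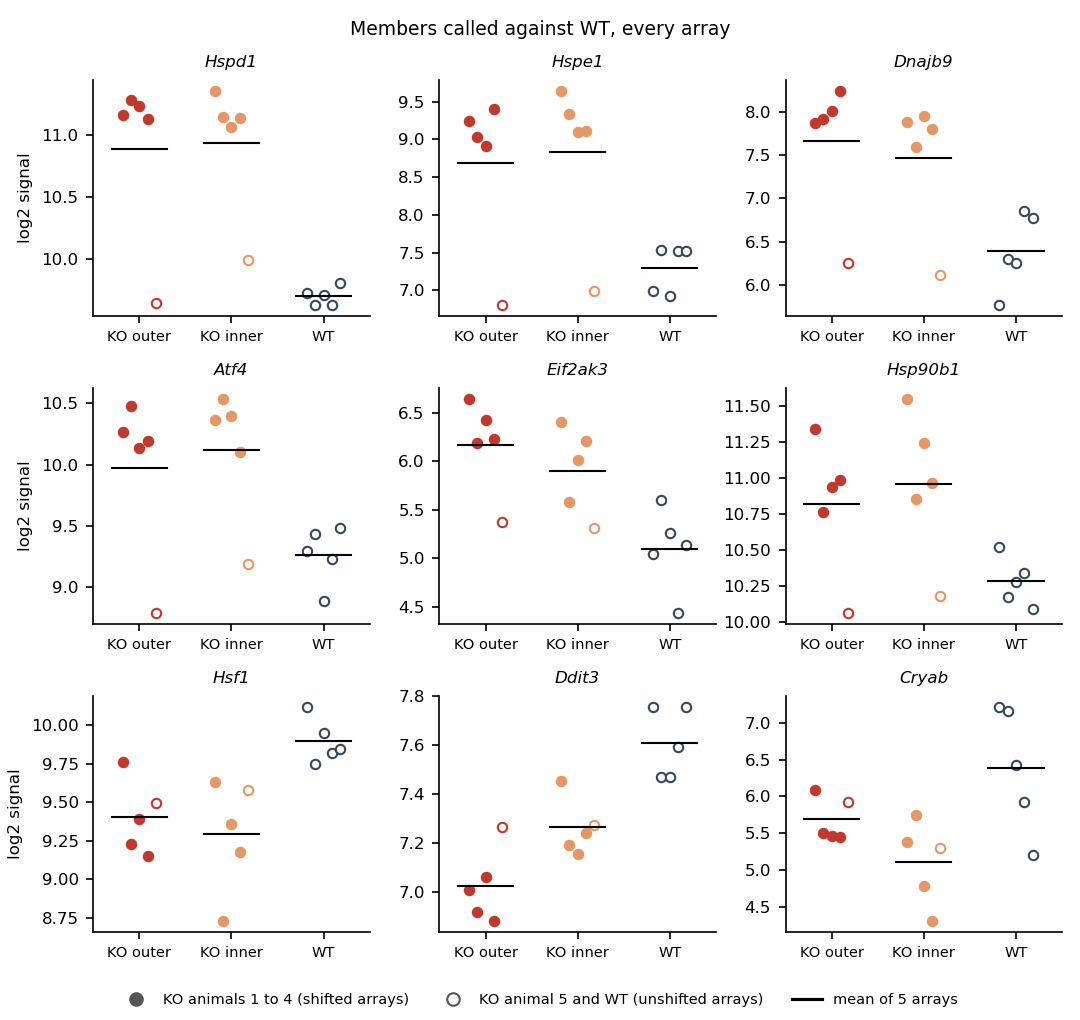
Log2 signals of 9 members called against WT in at least 1 layer, on every array, with KO outer, KO inner and WT layers from left to right, filled symbols for KO animals 1 to 4, open symbols for KO animal 5 and WT, and bars for the mean of 5 arrays. For Hspd1, Hspe1, Dnajb9, Atf4 and Hsp90b1 the open KO symbols lie at or near the WT arrays, whereas for Ddit3 and Hsf1 they lie below all WT arrays.

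Among ER chaperones, 2 rose and 2 fell in the KO inner layer relative to WT, and 1 rose and 1 fell in the outer layer, of 10 tested and without the batch term. Dnajb9 had 7.87, 7.92, 8.01, 8.24 and 6.25 in KO outer layers and 7.88, 7.60, 7.94, 7.80 and 6.12 in KO inner layers, against 5.77, 6.29, 6.26, 6.86 and 6.78 in WT layers. Animals 1 to 4 were above and animal 5 within the WT range. The difference was 1.27 ± 0.35 in the outer (adjusted p = 0.037) and 1.08 ± 0.34 in the inner layer (adjusted p = 0.037), and −0.14 and −0.27 under the batch term. Hsp90b1 differed by 0.54 ± 0.20 in the outer (adjusted p = 0.084) and by 0.68 ± 0.21 in the inner layer (adjusted p = 0.036), and by −0.22 and −0.10 under the batch term. Its 4 shifted arrays lay between 10.76 and 11.34 in the outer and between 10.85 and 11.55 in the inner layer, against 10.09 to 10.52 in WT layers, and animal 5 was at 10.06 and 10.18.

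Both ER members that fell kept their sign in KO animal 5 in each layer where they were called. Dnajc3 had 6.84, 6.68, 6.66, 6.34 and 7.29 in KO outer layers and 7.13, 6.66, 7.10, 6.63 and 7.01 in KO inner layers, against 7.36, 7.37, 7.38, 7.41 and 7.18 in WT layers. All 5 inner arrays were below the WT arrays, and of the outer arrays that of animal 5 was not. The difference was −0.58 ± 0.15 in the outer (adjusted p = 0.031) and −0.44 ± 0.12 in the inner layer (adjusted p = 0.021), and −0.05 and −0.33 under the batch term. Pdia4, at 8.51, 8.39, 8.39, 8.31 and 8.29 in WT layers, was below all of these on the 5 inner arrays printed above. It differed from WT by −0.45 ± 0.10 in the inner layer (adjusted p = 0.011, and −0.34 under the batch term) and by −0.13 in the outer layer (adjusted p = 0.615, and 0.11 under the batch term). The other 6 ER members passed in neither layer, with differences from −0.36 (P4hb) to 0.61 (Pdia6) in the outer and from −0.30 (Creld2) to 0.43 (Pdia6) in the inner layer.

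Of the 5 measured UPR sensors, factors and effectors, 3 were called against WT in the inner layer and 2 in the outer. Eif2ak3 had 6.65, 6.19, 6.42, 6.23 and 5.37 in KO outer layers and 6.40, 5.58, 6.02, 6.20 and 5.31 in KO inner layers, against 5.04, 5.60, 5.26, 4.43 and 5.14 in WT layers. The outer arrays of animals 1 to 4 were above WT, while inner array 2 and both arrays of animal 5 were within the WT range. The difference was 1.08 ± 0.25 in the outer (adjusted p = 0.026) and 0.80 ± 0.24 in the inner layer (adjusted p = 0.032), and 0.28 and 0.21 under the batch term. Atf4 differed by 0.71 ± 0.28 in the outer (adjusted p = 0.097) and 0.85 ± 0.23 in the inner layer (adjusted p = 0.022), and by −0.47 and −0.07 under the batch term. Its second probe passed background on 4 of 5 KO arrays of each layer, not in animal 5, and on 0 WT arrays. By an approximate bound, its level was 1.46-fold higher in the outer and 1.39-fold higher in the inner layer. This probe was kept only through the KO arrays, and no test is read from it. Such a bound sets the KO mean against the dimmest detectable signal, or the probe's own where that is higher, averaged over the WT arrays. The KO mean takes in animal 5 at its undetected signal, so the bounds here and below are approximate.

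Ddit3 went the other way from Atf4, its activator in the PERK branch. It had 7.01, 6.92, 7.06, 6.88 and 7.27 in KO outer layers and 7.46, 7.19, 7.16, 7.24 and 7.28 in KO inner layers, against 7.76, 7.47, 7.47, 7.59 and 7.76 in WT layers. All 10 KO arrays were below all 5 WT arrays, animal 5 included. The difference was −0.58 ± 0.10 in the outer (adjusted p = 0.019) and −0.34 ± 0.097 in the inner layer (adjusted p = 0.024), and −0.34 and −0.33 under the batch term, which did not pass (adjusted p = 0.681 and 0.614). A dimmer second Ddit3 probe differed from WT by 0.10 in the outer and 0.21 in the inner layer and did not pass, so that the 2 probes of this gene disagree in sign. Ppp1r15a differed by −0.18 and 0.09, and Xbp1 by −0.15 and −0.28, in outer and inner layers, without passing. Of ER-associated degradation, Sel1l was called in the outer layer, with 7.29, 7.71, 7.65, 7.54 and 7.16 there and 6.91, 7.46, 7.57, 7.23 and 7.36 in KO inner layers, against 7.12, 6.59, 7.11, 6.92 and 7.07 in WT layers. The 5 outer arrays were above all WT arrays, by 0.51 ± 0.14 on average (adjusted p = 0.036, and 0.20 under the batch term), and the inner layer differed by 0.34 (adjusted p = 0.094). Another Sel1l probe, undetected throughout WT, was likewise kept only through KO arrays, with KO animal 5 undetected in both layers. By the same approximate bound, it was 1.78-fold higher in the outer and 1.61-fold higher in the inner layer.

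Of the 9 cytosolic members, 1 rose and 2 fell in the KO inner layer relative to WT, and 1 fell in the outer layer, where Hspa4 was called as well. Hsp90aa1 had 5.56, 6.09, 5.77, 6.49 and 4.90 in KO outer layers and 6.12, 5.94, 6.34, 6.14 and 5.43 in KO inner layers, against 5.16, 5.57, 5.32, 5.27 and 5.59 in WT layers. Inner arrays 1 to 4 were above WT and animal 5 was within its range. The difference was 0.38 ± 0.25 in the outer (adjusted p = 0.287) and 0.61 ± 0.16 in the inner layer (adjusted p = 0.020), and −0.48 and 0.05 under the batch term. Hspa4, an HSP110-type exchange factor, was below detection in all WT layers, and it was detected in KO animals 1 to 4 alone, so that the probe was kept only through these arrays. By the same approximate bounds, its signal was 1.25-fold higher in the outer and 1.20-fold higher in the inner layer, and no test is read from it.

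Hsf1, the master factor of the heat shock response, was lower in both KO layers. It had 9.76, 9.23, 9.39, 9.15 and 9.49 in KO outer layers and 9.63, 8.73, 9.36, 9.18 and 9.58 in KO inner layers, against 10.12, 9.75, 9.95, 9.82 and 9.85 in WT layers. All inner arrays were below all WT arrays, and outer array 1 overlapped the lowest of them. The difference was −0.49 ± 0.12 in the outer (adjusted p = 0.030) and −0.60 ± 0.16 in the inner layer (adjusted p = 0.021), and −0.40 and −0.32 under the batch term (adjusted p = 0.736 and 0.807). Cryab was at 7.22, 7.16, 6.43, 5.92 and 5.20 in WT layers, highest on the 3 WT arrays with high muscle transcripts. It differed by −0.70 ± 0.35 in the outer (adjusted p = 0.177) and −1.28 ± 0.39 in the inner layer (adjusted p = 0.033), and by −0.46 and −1.09 under the batch term. Over arrays low in muscle and bone transcripts, KO outer animals 2 to 5 minus WT animals 4 and 5 came to 0.03, while KO inner animals 3 and 4, where Cryab was undetected, were lower than the same WT animals by at least 0.67 in absolute log2 units (−0.67). Hspa8, Hsp90ab1, Dnajb1, Dnaja1 and Hsph1 passed in neither layer by their brightest probes, with differences between −0.05 and 0.21 in the outer and between −0.21 and 0.16 in the inner layer. Both other Hsp90ab1 probes were called in at least 1 layer. The first differed by 1.01 ± 0.20 in the outer (adjusted p = 0.023) and 0.73 ± 0.17 in the inner layer (adjusted p = 0.011), and by 0.60 and 0.45 under the batch term. The second differed by 0.76 ± 0.18 in the outer (adjusted p = 0.026) and 0.42 ± 0.20 in the inner layer (adjusted p = 0.136), and by 0.98 and 0.66 under the batch term. The probes of this gene therefore disagree on whether it differed from WT. The second Hspa8 probe was lower than WT in the inner layer by 0.81 in absolute log2 units (−0.81 ± 0.20, adjusted p = 0.015, and −0.18 under the batch term).

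KO animal 5 was compared with the called direction. Its array is among the 5 KO arrays behind each call, so agreement is not independent of the call. The differences under the batch term are animal 5 minus the WT mean, so they repeat the same measurement. Of the 6 members higher than WT in the outer layer, animal 5 kept the sign for 2, and of the 3 lower members it kept the sign for 3, beside 65.2% of all genes called higher and 98.8% of all called lower. In the inner layer animal 5 kept the sign for 3 of the 7 higher and 5 of the 5 lower members, beside 81.9% and 97.2% of all genes called in these directions. The difference between directions was not tested. Over all 30 members, animal 5 lay within the range of the WT arrays for 14 in the outer and 19 in the inner layer. The median difference of the members from WT was 0.09 in the outer and 0.04 in the inner layer, beside −0.07 over all genes in each, and −0.18 and −0.12 under the batch term, beside −0.01 in each. By role and without the term, the median was −0.15 for ER chaperones, 0.15 for cytosolic members and 1.19 for mitochondrial chaperones in the outer layer. In the inner layer it was −0.12, 0.02 and 1.24 for these roles.

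**Figure D4:**
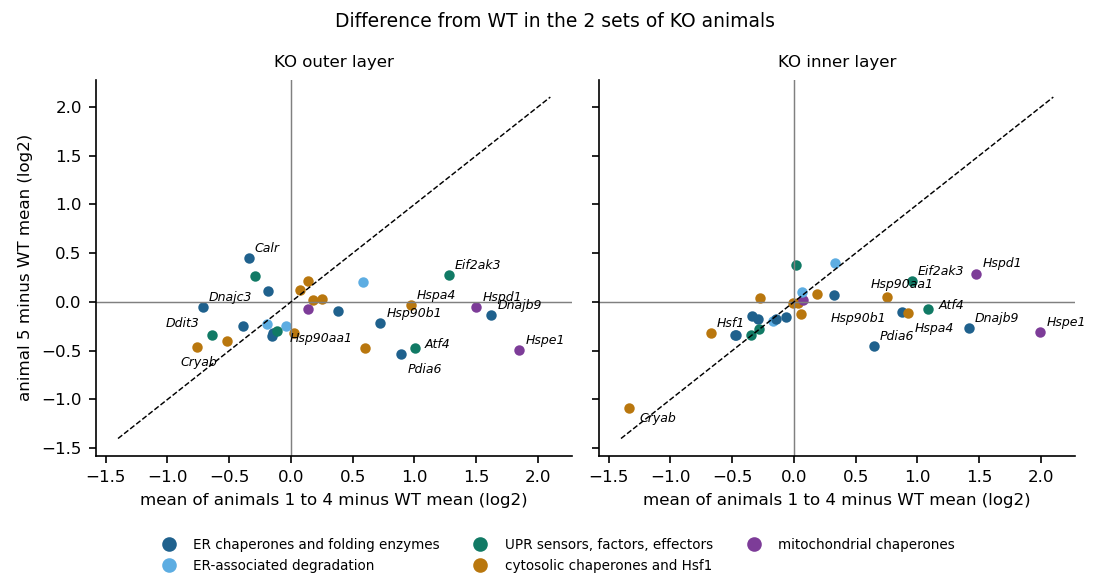
For each of the 30 members, the mean of KO animals 1 to 4 minus the WT mean is on the horizontal axis and KO animal 5 minus the WT mean on the vertical axis, both in log2 units, with the outer layer at the left and the inner at the right and the dashed line marking equal values. Hspe1 (1.85 and −0.50 in the outer layer, 1.99 and −0.31 in the inner) and Dnajb9 lie far to the right and below 0 on the vertical axis. Ddit3, Hsf1 and Cryab lie below 0 on both axes in both layers.

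Further genes of the same pathways, from lists of 84 genes, were described beside the members. Of these, 63 were tested between the KO layers and 13 were called (20.6%, beside 21% of all genes), in the outer layer 5 higher and 8 lower. The higher genes were Mbtps2, the site-2 protease that activates ATF6 (0.80 ± 0.14), the HSP40 genes Dnajb4 (0.50 ± 0.089) and Dnajb6 (0.41 ± 0.099), the ER thioredoxin gene Txndc12 (0.34 ± 0.075) and the ER lectin gene Os9 (0.33 ± 0.079). The 5 lower ones of largest difference were Bag3, a co-chaperone of HSP70 in stress and in muscle (−1.28 ± 0.24), Hspa2, an HSP70 (−1.01 ± 0.10), the stress-responsive factor Cebpb (−0.84 ± 0.13), Creb3l1, an ER-bound factor detected on 1 of 5 outer, 5 of 5 inner and 3 of 5 WT arrays (−0.60 ± 0.14), and Chac1, an Atf4-dependent glutathione-degrading enzyme (−0.45 ± 0.071). Adjusted p lay between 0.00094 and 0.026 for these genes other than Mbtps2 and Creb3l1. The Mbtps2 probe was detected on 5 of 5 outer arrays but on 1 of 5 inner and 1 of 5 WT arrays, so it was kept through the layer in which it is high, and its value, set largely against background, is a description. The value of Creb3l1, undetected on most outer arrays, is a description in the same way. Both stay in the count of 13 called. In animals 3 and 4, low in muscle and bone transcripts, the difference averaged −0.55 for Bag3, −1.03 for Hspa2, −0.66 for Cebpb and −0.49 for Chac1. Of the 7 measured subunits of the TRiC chaperonin, which folds tubulin and actin, 0 passed, with values between 0.02 and 0.27, where 54.1% of all genes lay above 0.

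Hspa1a, the stress-inducible HSP70 whose near-identical copy Hspa1b is a member without a matched probe, was added after its values were seen. It had 4.99, 5.31, 5.32, 5.36 and 5.80 in KO outer layers against 6.19, 6.26, 6.03, 5.63 and 6.37 in KO inner layers, and 6.24, 6.11, 5.88, 5.75 and 6.32 in WT layers. The difference, given as a description with no test, was −0.74, and the outer range overlapped the inner one only through outer array 5. In animals 3 and 4 the difference averaged −0.48. Signal from the 2 gene copies cannot be told apart by 1 probe. Hspa2, by contrast a gene of its own, had 8.30, 8.996, 8.23, 8.24 and 8.46 in KO outer layers against 9.52, 9.62, 9.26, 9.28 and 9.60 in KO inner layers and 9.10, 8.77, 8.87, 9.19 and 9.52 in WT layers, with no outer array as high as an inner one.

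**Figure D5:**
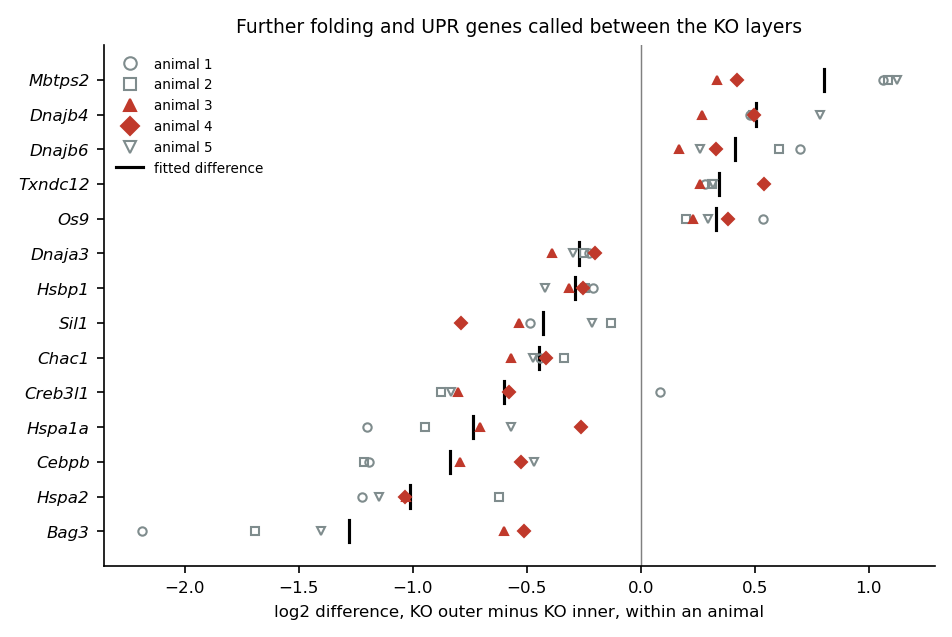
Differences between the layers within each of the 5 KO animals (symbols) and the fitted difference (bars), in log2 units, KO outer minus KO inner, for the 13 further genes called and for Hspa1a. Animals 3 and 4, whose muscle and bone markers were low, are in red, and Bag3 spans −2.19 in animal 1 to −0.51 in animal 4.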

How the data were processed

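Chaperone and UPR genes were read from 15 arrays. The authors deposited log2 signals per entry, which, tested on the values, had medians between 6.47 and 6.96 per array and no background subtraction. They also deposited scores, equal to the log2 signal minus the array's median over its SD, with an added shift per entry on 8 arrays. Of tools, the submitters' processing notes name limma alone, without its version or role. The planned design assumed a detection p per probe. Here 1116 of 1124 entries without a probe served as negative controls (8 bright ones were set aside), signals were corrected and quantile-normalized with neqc (limma 3.58.1, R 4.3.3, offset 16), and the detection p was the share of controls at or above a signal. Kept were 11998 of 25697 probes (46.7%), and a gene stands for its brightest kept probe.

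Of the probes, 23978 had 1 annotated symbol, 0 several and 1719 none, and 1161 were named by the bracketed symbol. Gene identifiers of 23962 probes matched RefSeq GRCm38.p6. Tests were two-sided (lmFit and eBayes of limma), and Benjamini-Hochberg adjustment covered every kept probe. Outer and inner layers were compared over 10 arrays with the animal as a block, as the design text pairs them by animal, and the layers of 1 animal deviated together (r from 0.253 to 0.764 across genes). KO and WT were compared without covariates. Errors are SE for differences and SD for means, and the number of arrays limits precision. Scripts were tested on simulated data. Members and lists, and so the genes named, were chosen with earlier results of these data known. Named with array values are members called between the layers, or called against WT with the same sign under the batch term, and a few further called members. Of the further lists, at most 5 called genes per direction are named. Alternatives are given in the closing section.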

Additional observations from a re-analysis of the deposited data

Results flagged for a closer look

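Single arrays stood apart from the other 4 of their group for 12 of 90 combinations of member and group by Dixon's test, where chance flags about 1 in 20. Of the 12, 7 were arrays of KO animal 5, each below the arrays of KO animals 1 to 4. These were Atf4 in the outer layer (8.79), Dnajb9 in the outer (6.25) and inner layer (6.12), Hspd1 in the outer (9.65) and inner layer (9.99), and Hspe1 in the outer (6.81) and inner layer (6.99). The other 5 were Creld2 high on outer array 1 (8.58), Dnaja1 low on outer array 4 (4.73), Dnajb1 high on inner array 3 (11.21), Dnajc3 low on WT array 5 (7.18) and Herpud1 low on WT array 2 (10.18).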

How the results depend on the processing

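Under the alternatives tried, single called members kept direction and side of the threshold in 209 cases, kept direction without passing in 217 and turned in 24, of which 3 are Hspa4, undetected in both WT and KO animal 5 and so without a direction there. Fits with the batch leave KO animal 5 alone against WT, where hardly any gene can pass, so lost calls there say nothing about stability. With the batch as a term, within the unshifted arrays, and over all 15 arrays with this term and a random block for the animal, 0 members passed in either layer. The members that turned were, in the inner layer, Atf4 (−0.072, −0.072 and −0.20 in these 3 fits), Dnajb9 (−0.27, −0.27 and −0.30), Hsp90b1 (−0.10, −0.10 and −0.088), Hspe1 (−0.31, −0.31 and −0.33) and Hsp90aa1 in the third (−0.10). In the outer layer they were Dnajb9 (−0.14, −0.14 and −0.11), Hspa4 (−0.032, −0.032 and −0.045), Hspe1 (−0.50, −0.50 and −0.48) and, in the first 2 fits, Hspd1 (−0.055 in each).

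Between the layers, 1 member passed as reported. The count was 2 with quantile normalization alone (Pdia4 and Ppp1r15a), with probes detected on all 15 arrays (Pdia4 and Ppp1r15a) and with the authors' scores (Pdia4 and Xbp1), and 3 with the mean over a gene's probes (Hsp90ab1, Hspa8 and Ppp1r15a). It was 0 without a filter on dim probes, 0 within the shifted arrays, and 0 with no replicate block, and leaving out 1 animal gave 0 to 1 (Cryab without animal 2). With median scaling, or without arrays high in muscle or bone transcripts, Cryab passed in place of Ppp1r15a. Median scaling moved the median of all genes to 0.145 (0.026 as reported), and relative to it the members' directions between layers were not read.

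Against WT, 12 members passed in the inner layer as reported, 7 with median scaling, 5 with the authors' scores and 5 to 13 when 1 array was left out (5 without inner array 3). In the outer layer 9 passed as reported, 3 with median scaling, 3 with the authors' scores, 4 without a filter, 0 without arrays high in muscle or bone transcripts, 0 with the replicate block and 0 to 15 when 1 array was left out (0 without outer array 2, 3 or 4, and 15 without outer array 5). The replicate block rests on a shared number only, since KO and WT numbers did not pair (r from −0.378 to 0.558). In the inner layer it left 8. Over all genes called, the share higher was 45.7% between the layers and 59.3% with the scores, 46.7% in the inner layer against WT and 80.2% with median scaling, and 54.8% in the outer layer and 93% with median scaling. The cause of these shifts was not tested. Signal over background limits Dnaja1, Hspa4, Eif2ak3 and Cryab (3 of 5 inner arrays detected), which were near the detection floor.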
